A study of Mus musculus with 48 samples.

Results

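In this work 8 secreted-factor genes were followed in the liver transcriptome of mice with or without the nuclear receptor PPARα. They were Fgf21, Gdf15, Angptl4, Angptl6, Fst, Inhbe, Ahsg and Fetub, which encode metabolic hepatokines, proteins that the liver releases into the blood and that act on other tissues. A gene was included where a probe of the array carried its symbol and was not a control spot. All 8 genes had 1 probe each, and all 8 passed the filter on dim probes, out of 33323 tested probes and 22029 gene names.

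Total RNA from whole liver of male C57BL/6J mice, 20 weeks old by the labels, was hybridised in a single colour on Agilent arrays. Each of the 6 groups held 8 mice, and every mouse had its own array. WT mice, mice with a germline deletion of the receptor (Pparα-/-) and mice with a deletion in hepatocytes (Pparα hep-/-) received a control diet (CTRL) or a high-fat diet (HFD, 60% fat) for 12 weeks; the study's own text gives a shorter period. The hepatocyte deletion was made with a Cre recombinase under the albumin promoter in mice with floxed Pparα, so other liver cells and other organs keep the receptor. All mice lived at thermoneutrality and were killed in the fed state, and WT mice came from a commercial supplier while both deletion lines were bred in-house, so that genotype and mouse source cannot be told apart in any comparison with WT. In whole liver, fewer cells of a type and less RNA per cell cannot be told apart either.

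Between 28234 and 38217 spots were well above background on each array. All 7 hepatocyte markers were well above background on every array, with Alb on CTRL at a mean of 18.90 to 18.92 (log2), a level that quantile normalization nearly fixes. Of the 7 markers 3 (Apoa1, Cps1 and Hnf4a) were lower than in WT in both deletions on CTRL, with Hnf4a at -0.36 (adjusted p = 0.00802) for the hepatocyte deletion and -0.43 (adjusted p = 0.00144) for the germline deletion. On HFD all 3 were lower in Pparα-/- mice. Their part in the results below was not tested. Of 2 tested probes for Ppara, the deleted gene, one fell by 0.65 (log2, adjusted p = 1.1e-06) in Pparα-/- mice on CTRL, and its change in the hepatocyte deletion was -0.42 (adjusted p = 0.000887). The other fell by 1.11 (adjusted p = 5.27e-13) in Pparα-/- mice, and its change in Pparα hep-/- mice on CTRL was -0.10 (adjusted p = 0.454), so it did not mark the hepatocyte deletion on that diet. On HFD both probes fell in both deletions, by 0.68 to 1.29. It was not assessed whether either lies in the deleted exon. A Pparα hep-/- mouse on CTRL, replicate 1, stood apart: its array had the lowest weight in the fit (0.189, against a highest weight of 2.53) and it had the highest Fgf21 and the lowest Angptl6 and Fetub signal of its group. A WT mouse on CTRL, replicate 6, had the next lowest weight (0.208). Without both arrays 28 of the 29 calls reported below were kept, and Ahsg in HFD-fed Pparα-/- mice was lost (adjusted p = 0.053); this alternative was chosen after seeing the data.

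FGF21 is a hormone made mainly by hepatocytes. Its gene is a classical target of PPARα in fasting and is also switched on by amino acid shortage and other stress through the transcription factor ATF4. GDF15 is released by stressed cells of many tissues and acts on a receptor in the hindbrain that lowers food intake. ANGPTL4 inhibits lipoprotein lipase in the circulation and its gene is another PPARα target, whereas ANGPTL6 is a related protein linked to energy expenditure. Inhbe encodes the activin E subunit, a liver-derived member of the TGF-β family, and follistatin, encoded by Fst, binds and neutralises activins. Ahsg (fetuin-A) and Fetub (fetuin-B) encode abundant plasma proteins of the cystatin superfamily that have been linked to insulin sensitivity.

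Fgf21 and Gdf15 moved in opposite directions when PPARα was deleted, and Fetub rose in the germline deletion. A gene was called where the limma fit over all tested probes gave a Benjamini-Hochberg adjusted p of at most 0.05. HFD changed 1 of the 8 genes in WT mice (18.7% of all probes), 3 in Pparα hep-/- mice (20.2%) and 3 in Pparα-/- mice (24.8%). Compared with WT mice on CTRL, 3 genes differed in Pparα hep-/- mice (24.7% of all probes) and 5 in Pparα-/- mice (34.2%). On HFD the counts against WT were 3 (26.7%) and 5 (45.7%). Between the deletions 2 genes differed on CTRL (25.2%) and 2 on HFD (30.6%). Some comparisons had no member whose groups were fully apart: HFD in WT (0.603% of all probes), HFD in Pparα hep-/- (0.591%), Pparα hep-/- against WT on CTRL (1.31%) and Pparα-/- against WT on HFD (6.93%). Many probes differed in each of these comparisons, so the counts of members say little by themselves. The Pparα hep-/- and Pparα-/- comparisons share the same WT mice.

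**Figure D1:**
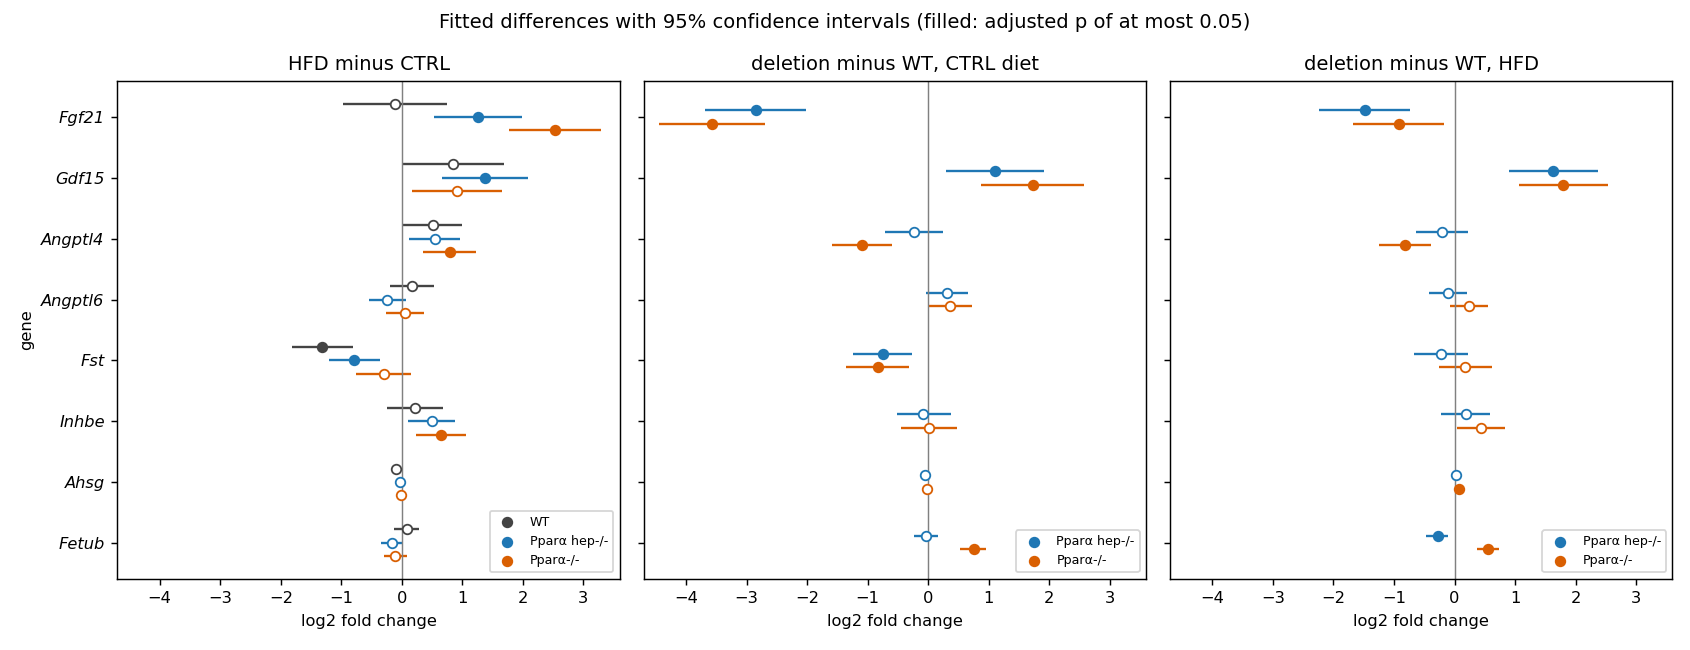
Fitted log2 fold changes of the 8 genes with 95% confidence intervals, for HFD minus CTRL in each genotype (left), each deletion minus WT on CTRL (middle) and on HFD (right); filled points had an adjusted p of at most 0.05. Fgf21 lies far below 0 in both deletions on CTRL and above 0 for HFD in both deletions, Gdf15 lies above 0 in every comparison of a deletion with WT, and Fst lies below 0 for HFD in WT mice.

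Promoter sequences are shown for Fgf21, Gdf15 and Inhbe, which hold the matches described below. Sequences were taken from a table of RefSeq promoters, in which 6 of the 8 genes were matched, with 8 entries in all; those of Angptl4 and Fst were not analysed here. The 250 bases before the start site were searched on both strands for TGATGNAA, the composite site of C/EBP and ATF factors, for the E-box CACGTG, for the nuclear receptor half-site AGGTCA and for 2 such half-sites in direct repeat with 1 base between. Sequences run 5′ to 3′ on the strand of the gene (all 3 genes are on the minus strand of GRCm38.p6), with every match in capitals. The Fgf21 entry is chr7:45615491-45615740, the Inhbe entry is chr10:127351849-127352098, and the Gdf15 entries are chr8:70632457-70632706 and chr8:70632096-70632345.
Fgf21: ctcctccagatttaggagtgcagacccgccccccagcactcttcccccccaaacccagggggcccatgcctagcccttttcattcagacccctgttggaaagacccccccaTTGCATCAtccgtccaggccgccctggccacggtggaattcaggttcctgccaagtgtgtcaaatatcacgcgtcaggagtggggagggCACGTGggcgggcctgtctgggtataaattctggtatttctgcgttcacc
Inhbe: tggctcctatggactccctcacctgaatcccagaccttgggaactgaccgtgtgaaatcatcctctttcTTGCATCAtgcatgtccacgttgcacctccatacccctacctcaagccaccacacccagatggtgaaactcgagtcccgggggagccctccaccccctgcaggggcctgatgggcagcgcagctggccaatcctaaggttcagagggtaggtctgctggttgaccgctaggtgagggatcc
Gdf15, first entry: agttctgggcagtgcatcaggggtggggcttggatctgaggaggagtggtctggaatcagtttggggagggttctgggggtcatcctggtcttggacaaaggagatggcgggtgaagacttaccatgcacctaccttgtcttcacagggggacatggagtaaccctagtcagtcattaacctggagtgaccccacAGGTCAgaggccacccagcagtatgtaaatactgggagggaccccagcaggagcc
Gdf15, second entry: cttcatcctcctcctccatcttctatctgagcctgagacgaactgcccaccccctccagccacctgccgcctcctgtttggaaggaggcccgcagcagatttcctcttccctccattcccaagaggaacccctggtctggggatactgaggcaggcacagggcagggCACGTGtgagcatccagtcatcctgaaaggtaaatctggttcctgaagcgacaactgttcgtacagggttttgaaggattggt
Fgf21 and Inhbe both held TGATGNAA, read on the opposite strand as TTGCATCA, from base -139 to -132 of Fgf21 and from base -181 to -174 of Inhbe. This motif was in 3.45% of the 32851 promoters. The E-box, in 6.02% of promoters, began at base -50 of Fgf21 and at base -83 of the second Gdf15 entry. The first Gdf15 entry held AGGTCA at base -55, as did 14% of promoters, and the direct repeat was in 0.0335% of promoters and in none of the 8 entries. A match is a run of letters, not a shown binding site. Only exact matches within 250 bases were searched. The exact direct repeat is so rare that its absence from these entries says nothing about control by PPARα.

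Fgf21 was the gene with the widest range. In WT mice on CTRL its normalized signal had a lowest value of 7.24, a median of 8.90 and a highest value of 10.23 (log2). In Pparα hep-/- mice on CTRL the values were 4.98, 6.24 and 9.61, and in Pparα-/- mice on CTRL they were 4.79, 5.22 and 6.23. All 8 Pparα-/- mice were below all 8 WT mice, and 7 of the 8 Pparα hep-/- mice were; the exception was replicate 1. The hepatocyte deletion lowered Fgf21, with a log2 change of -2.85 (SE 0.41, adjusted p = 1.39e-06, limma), a 7.2-fold lower signal. In Pparα-/- mice it fell by 3.57 (SE 0.43, adjusted p = 5.59e-09), a 11.9-fold lower signal, with the groups fully apart as for 6.15% of all probes in that comparison. The difference between the deletions was -0.72 (95% interval -1.5 to 0.06, adjusted p = 0.183).

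**Figure D2:**
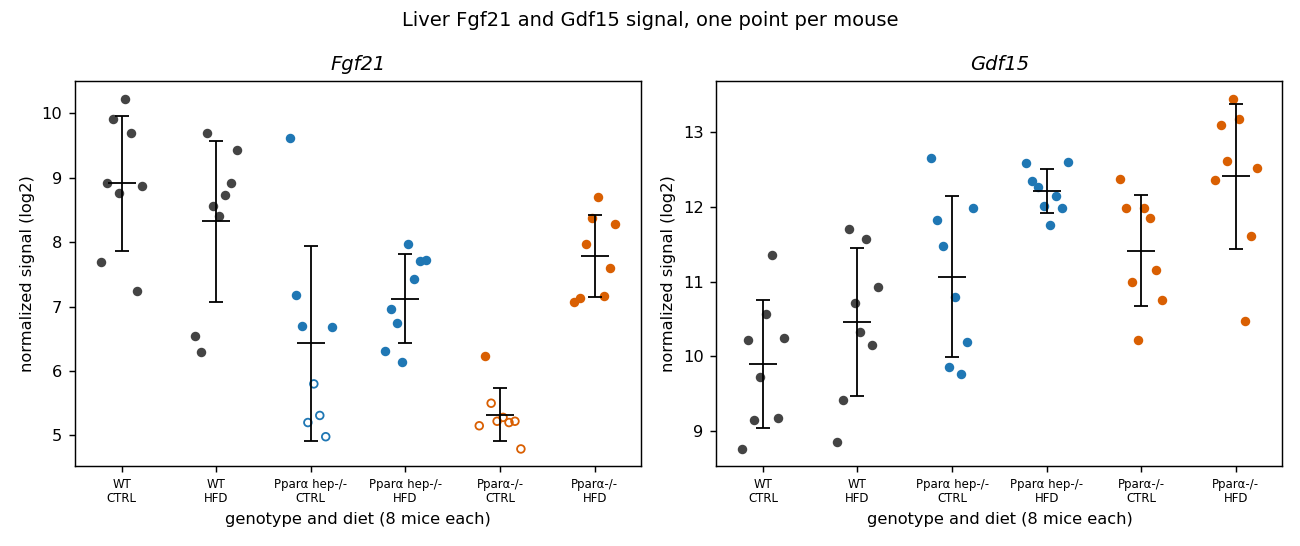
Normalized signal (log2) of Fgf21 (left) and Gdf15 (right) in each mouse by genotype and diet, 8 mice per group; bars are the mean ± SD, and open points are arrays on which the probe was not well above background. The WT groups hold the highest Fgf21 values, the Pparα-/- CTRL group lies between 4.79 and 6.23, and all Pparα hep-/- mice on HFD lie above all WT mice on HFD for Gdf15.

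These low Fgf21 values were at the limit of detection. The Fgf21 probe (chr7:52869305-52869364, mm9) was well above background on 1 of 8 Pparα-/- CTRL arrays and on 4 of 8 Pparα hep-/- CTRL arrays, and on 8 of 8 arrays in the other 4 groups. The size of the fall therefore depends on how background is treated: with background-subtracted processed signals the change was -6.27 in Pparα-/- mice and -4.65 in Pparα hep-/- mice, and with normexp correction it was -2.91 and -2.36, all of them called. Over all 13 alternatives the change in Pparα hep-/- mice ran from -4.65 to -1.93 and was called in each.

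HFD raised Fgf21 in Pparα-/- mice, whereas in WT mice no change was detected and in Pparα hep-/- mice the call depended on the settings. In WT mice on HFD the lowest, median and highest values were 6.30, 8.65 and 9.69, which overlapped the WT CTRL group, and the fitted change was -0.11 (95% interval -0.97 to 0.74, adjusted p = 0.899). In Pparα-/- mice on HFD they were 7.07, 7.79 and 8.70, and every one of these mice was above every Pparα-/- mouse on CTRL. The fitted rise was 2.53 (SE 0.38, adjusted p = 5.99e-06), in a comparison where the groups were apart for 1.44% of all probes. Its size is uncertain because the CTRL group was at the limit of detection: it was 1.94 with normexp correction and 5.04 with background-subtracted processed signals, both called. In Pparα hep-/- mice on HFD the values were 6.14, 7.19 and 7.97, and the rise was 1.25 (SE 0.36, adjusted p = 0.0113). That rise was smaller without array weights (0.70, adjusted p = 0.542), where CTRL replicate 1 has the same weight as the others. It was also not called without CTRL replicate 4 (adjusted p = 0.0592), without the wash term (1.02, adjusted p = 0.0595), without a filter (1.17, adjusted p = 0.0592) or within wash batch 2 (1.18, adjusted p = 0.172), and it was 2.76 with background-subtracted processed signals.

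The diet response itself differed between Pparα-/- and WT mice. The difference of the responses was 2.65 (SE 0.57, adjusted p = 0.00135), one of 2 members called in a test that called 14.3% of all probes, and it was called with each array left out in turn. It rests on the same Pparα-/- CTRL group, and it was 2.03 with normexp correction, 5.24 with background-subtracted processed signals (both called) and 1.82 (adjusted p = 0.22) within wash batch 2. Between Pparα hep-/- and WT mice the difference was 1.37 (SE 0.56, adjusted p = 0.106, where no member was called and 10.4% of all probes were). That difference was called with background-subtracted processed signals (2.95, adjusted p = 0.0304) and without WT CTRL replicate 7 (1.66, adjusted p = 0.0376), and it was 0.47 (adjusted p = 0.839) within wash batch 2. Between the deletions it was 1.28 (SE 0.52, adjusted p = 0.183, with no member called and 3.42% of all probes). On HFD, Fgf21 was still lower than in WT mice: it fell by 1.48 in Pparα hep-/- mice (SE 0.37, adjusted p = 0.00258) and by 0.92 in Pparα-/- mice (SE 0.37, adjusted p = 0.0386). Both deletions overlapped WT, with 1 of 8 Pparα hep-/- mice and 0 of 8 Pparα-/- mice below all WT mice. Without array weights neither was called, at -1.20 (adjusted p = 0.115) and -0.54 (adjusted p = 0.427), and the same held within wash batch 2 (-1.45 and -1.14, adjusted p = 0.0736 and 0.0643). The second was also lost without a wash term, with slide as a block, without a filter, with scaled processed signals and within wash batch 1 (adjusted p up to 0.183), and without any 1 of WT HFD replicates 3, 4, 7 or 8 or of Pparα-/- HFD replicates 1, 2, 6 or 7 (adjusted p up to 0.165). In order of fitted level the groups ran WT CTRL, WT HFD, Pparα-/- HFD, Pparα hep-/- HFD, Pparα hep-/- CTRL and Pparα-/- CTRL, with neighbours that differed only at the second and the fourth step.

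Most listed PPARα target genes rose on HFD in WT mice. Of 24 tested genes of a list of PPARα targets, HFD raised 20 in WT mice, 14 in Pparα hep-/- mice and 12 in Pparα-/- mice, with median log2 changes of 0.68, 0.44 and 0.52 against -0.01, -0.01 and -0.02 over all probes. The share of all probes called in either direction was 18.7%, 20.2% and 24.8%. In WT mice on HFD Cyp4a14, a fatty acid hydroxylase, rose by 2.56 (SE 0.42, adjusted p = 2.54e-05), and Cyp4a10 and Cyp4a31 rose by 2.50 and 2.62. In Pparα-/- mice on CTRL 15 of the 24 were lower than in WT, led by Vnn1, a pantetheinase, at -3.57 (SE 0.39, adjusted p = 3.83e-10), and 3 were higher. That comparison called 34.2% of all probes. In Pparα hep-/- mice on CTRL 8 were lower and 3 higher, with Pdk4, a brake on glucose oxidation, at 2.69 (SE 0.34, adjusted p = 1.3e-07). Here 24.7% of all probes were called. Probes of near-identical Cyp4a copies can bind each other's transcripts, so Cyp4a10 and Cyp4a31 are not independent.

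Klb, which encodes the β-Klotho co-receptor of FGF21, was lower without PPARα. It fell by 0.73 (SE 0.17, adjusted p = 0.000592) in Pparα-/- mice on CTRL, by 0.67 (adjusted p = 0.000182) in Pparα-/- mice on HFD and by 0.64 (adjusted p = 0.000936) in Pparα hep-/- mice on HFD. On CTRL the change in Pparα hep-/- mice was -0.30 (adjusted p = 0.183). Of the 5 receptor and co-receptor genes, HFD lowered 3 in WT mice (Fgfr2, Fgfr3 and Fgfr4, with changes of -0.31, -0.40 and -0.30), 2 in Pparα hep-/- mice and 2 in Pparα-/- mice, and raised none. Among all probes, 18.7%, 20.2% and 24.8% were called in these comparisons. On CTRL Fgfr1 exceeded its WT signal by 0.65 in Pparα-/- mice (adjusted p = 0.028).

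Gdf15 was higher in both deletions on both diets. In WT mice on CTRL the lowest, median and highest values were 8.76, 9.97 and 11.35, in Pparα hep-/- mice 9.76, 11.13 and 12.66, and in Pparα-/- mice 10.22, 11.50 and 12.37. These groups overlapped, with 4 of 8 mice of each deletion above all WT mice. The difference from WT was 1.11 (SE 0.40, adjusted p = 0.0384) in Pparα hep-/- mice and 1.73 (SE 0.42, adjusted p = 0.0011) in Pparα-/- mice, or 2.15-fold and 3.31-fold. The first of these was lost without any 1 of WT CTRL replicates 1, 3, 4 or 7 or of Pparα hep-/- CTRL replicates 1, 2, 3 or 8 (adjusted p up to 0.136), and it was 0.40 (adjusted p = 0.711) within wash batch 1 and 1.70 (adjusted p = 0.0493) within wash batch 2. It was also not called without array weights (1.16, adjusted p = 0.0512) or without a filter (1.11, adjusted p = 0.0685). Within wash batch 1 the second was 1.26 (adjusted p = 0.0923).

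Gdf15 was also higher in both deletions on HFD. WT mice had values of 8.85, 10.52 and 11.70, Pparα hep-/- mice 11.76, 12.20 and 12.60, and Pparα-/- mice 10.47, 12.57 and 13.45. Every Pparα hep-/- mouse was above every WT mouse, as for 1.44% of all probes, and 6 of 8 Pparα-/- mice were. The differences were 1.63 (SE 0.37, adjusted p = 0.000741) and 1.80 (SE 0.36, adjusted p = 6.65e-05), or 3.10-fold and 3.47-fold. The first was 1.28 (adjusted p = 0.0958) within wash batch 2. The deletions did not differ detectably from each other on either diet, at 0.62 on CTRL (95% interval -0.14 to 1.38) and 0.16 on HFD (-0.52 to 0.85).

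The diet change of Gdf15 passed the test in Pparα hep-/- mice, at 1.37 (SE 0.35, adjusted p = 0.00461). That change was 2.13 (adjusted p = 0.0171) within wash batch 1 and 0.84 (adjusted p = 0.314) within wash batch 2, and 1.16 (adjusted p = 0.129) without array weights. In WT mice the change was 0.84 (SE 0.42, adjusted p = 0.161) and in Pparα-/- mice 0.91 (SE 0.37, adjusted p = 0.0635; called without any 1 of CTRL replicates 1 or 2 or HFD replicates 6 or 7). The last was 1.57 (adjusted p = 0.0392) within wash batch 1 and 0.32 (adjusted p = 0.717) within wash batch 2. The diet responses did not differ detectably between genotypes: Pparα-/- minus WT was 0.07 (95% interval -1.05 to 1.19) and Pparα hep-/- minus WT was 0.53 (-0.57 to 1.63). All 5 neighbouring pairs in the order of the groups, from Pparα-/- HFD down to WT CTRL, failed the test. The receptor genes Gfral and Ret did not pass the filter on dim probes and were not tested.

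Genes of the integrated stress response, the ATF4 pathway that is known to drive both Fgf21 and Gdf15, changed in part. Of 17 tested genes HFD raised 1 and lowered 2 in WT mice, raised 5 and lowered none in Pparα hep-/- mice, and raised 7 and lowered 1 in Pparα-/- mice (medians -0.15, 0.23 and 0.45). These diet comparisons called 18.7%, 20.2% and 24.8% of all probes. Atf3, a stress-induced transcription factor, rose on HFD by 1.31 in Pparα hep-/- mice (SE 0.28, adjusted p = 0.000732) and by 1.54 in Pparα-/- mice (SE 0.29, adjusted p = 0.000146). Chac1, a glutathione-degrading enzyme, rose by 1.33 (adjusted p = 0.00129) in Pparα hep-/- mice. Compared with WT on HFD, 6 were higher in Pparα hep-/- mice and 8 in Pparα-/- mice, with none lower in either, in comparisons that called 26.7% and 45.7% of all probes in either direction. Vldlr, the very low density lipoprotein receptor, was 2.90 higher in Pparα-/- mice on HFD (SE 0.25, adjusted p = 2.78e-13) and 3.27 higher on CTRL. Atf4 itself fell by 0.34 (adjusted p = 0.00272) in WT mice on HFD. On CTRL the list was split, with 3 higher and 4 lower in Pparα hep-/- mice and 4 higher and 3 lower in Pparα-/- mice. The comparisons with WT on CTRL called 24.7% and 34.2% of all probes.

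Many markers of macrophages and stellate cells were higher in the deletions on HFD, and fewer on CTRL. Of 7 tested Kupffer cell and macrophage markers, 5 were higher in Pparα hep-/- and 7 in Pparα-/- mice than in WT on HFD (medians 0.99 and 1.47; 26.7% and 45.7% of all probes called). Their summed signal (lowest, median, highest; log2) was 14.26, 14.68 and 15.93 in WT CTRL, 13.74, 14.75 and 16.22 in WT HFD, 14.99, 15.26 and 16.75 in Pparα hep-/- CTRL, 15.17, 15.69 and 16.26 in Pparα hep-/- HFD, 14.58, 15.26 and 16.45 in Pparα-/- CTRL, and 15.47, 16.23 and 16.54 in Pparα-/- HFD. Of 7 stellate cell markers, 6 and 7 were higher in these comparisons on HFD, and the median of their summed signal went from 14.47 in WT HFD to 15.64 in Pparα hep-/- HFD and 15.72 in Pparα-/- HFD (range over all 6 groups 13.99 to 16.49). On CTRL, where Gdf15 was also higher, 2 and 3 of the macrophage markers and 1 and 1 of the stellate cell markers were higher in Pparα hep-/- and Pparα-/- mice (24.7% and 34.2% of all probes called). Among deviations from group means over 48 mice, Gdf15 had r from -0.335 (Timd4) to 0.552 with the macrophage markers, 4 of 7 above 0. Every one of these markers was detected above background on 7 or 8 of the 8 arrays in each group. HFD itself raised 3 of 7 macrophage and 4 of 7 stellate cell markers in Pparα hep-/- mice, and 6 of 7 of each in Pparα-/- mice. It raised none of them in WT mice. These comparisons called 20.2%, 24.8% and 18.7% of all probes. The part of these markers in the Gdf15 and Fgf21 results was not tested.

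Angptl4 was lower in Pparα-/- mice and was not detectably changed by the hepatocyte deletion. On CTRL the lowest, median and highest values were 14.41, 15.25 and 15.53 in WT, 14.33, 14.85 and 15.15 in Pparα hep-/- and 13.02, 14.04 and 14.74 in Pparα-/- mice. All but 1 Pparα-/- mouse were below all WT mice, and the lowest WT mouse, replicate 1, was at 14.41 against 15.06 for the next. The change was -1.09 in Pparα-/- mice (SE 0.25, adjusted p = 0.000498) and -0.23 in Pparα hep-/- mice (95% interval -0.71 to 0.25). Against Pparα hep-/- mice the change in Pparα-/- mice was -0.86 (SE 0.22, adjusted p = 0.00287), and within the wash batches it was -0.95 and -0.88 (adjusted p = 0.0802 and 0.055).

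HFD raised Angptl4 in Pparα-/- mice by 0.79 (SE 0.22, adjusted p = 0.00654), from a median of 14.04 to one of 14.94. In WT mice, with values of 15.01, 15.60 and 15.87 on HFD, the change was 0.51 (SE 0.25, adjusted p = 0.149). In Pparα hep-/- mice, with values of 14.49, 15.54 and 15.97 on HFD, it was 0.54 (SE 0.21, adjusted p = 0.059), a value that passed the test with slide as a block (0.54, adjusted p = 0.0376), with the replicate block (0.62, adjusted p = 0.00278), with the stricter filter (0.55, adjusted p = 0.0464) and without any 1 of Pparα hep-/- HFD replicates 1, 2 or 4, Pparα-/- CTRL replicates 1 or 7 or Pparα-/- HFD replicate 1. The diet responses did not differ detectably, with Pparα-/- minus WT at 0.27 (95% interval -0.38 to 0.93). On HFD Pparα-/- mice stayed below WT, at -0.82 (SE 0.21, adjusted p = 0.00156), and below Pparα hep-/- mice, at -0.62 (SE 0.20, adjusted p = 0.0159). The last value was -0.36 (adjusted p = 0.223) without Pparα hep-/- HFD replicate 6, was also lost without replicate 7, without array weights (-0.52, adjusted p = 0.106), with slide as a block (-0.45, adjusted p = 0.0597), without a filter (-0.57, adjusted p = 0.0506), and within wash batches 1 and 2 (-0.40 and -0.75, adjusted p = 0.341 and 0.08). The HFD change in Pparα-/- mice was 0.78 and 0.90 within the wash batches (adjusted p = 0.0856 and 0.0578).

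Lpl, which encodes the lipoprotein lipase that ANGPTL4 inhibits, changed in opposite directions with diet. It fell by 1.26 in WT mice on HFD (SE 0.38, adjusted p = 0.0147) and rose by 1.17 in Pparα hep-/- mice (SE 0.32, adjusted p = 0.00771) and by 1.43 in Pparα-/- mice (SE 0.34, adjusted p = 0.00157). On HFD it was 1.83 higher in Pparα hep-/- mice and 2.60 higher in Pparα-/- mice than in WT (adjusted p = 5.39e-05 and 1.22e-08), while on CTRL the changes were -0.60 and -0.10 and did not pass the test. Gpihbp1, the endothelial anchor of the lipase, rose by 0.63 in Pparα-/- mice on HFD (adjusted p = 8.53e-05). Of the 9 tested family and lipase genes HFD raised none and lowered 2 in WT mice, raised 1 and lowered 2 in Pparα hep-/- mice, and raised 2 and lowered none in Pparα-/- mice. The shares of all probes called were 18.7%, 20.2% and 24.8%.

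Angptl6 did not pass the test in any of the 12 comparisons. Group medians ran from 11.13 in WT CTRL to 11.78 in Pparα-/- HFD, and the mean ± SD was 11.11 ± 0.51 in WT CTRL, 11.62 ± 0.29 in Pparα-/- CTRL and 11.70 ± 0.24 in Pparα-/- HFD (n = 8 each). Its changes with the lowest adjusted p among comparisons with WT and between deletions were 0.36 for Pparα-/- against WT on CTRL (95% interval 0.00 to 0.72, adjusted p = 0.119) and 0.34 for Pparα-/- against Pparα hep-/- on HFD (0.05 to 0.63, adjusted p = 0.0692). The latter was called without Pparα hep-/- CTRL replicate 1, without Pparα hep-/- HFD replicate 5 or Pparα-/- HFD replicate 7, and within wash batch 1 (0.64, adjusted p = 0.0403). Replicate 1 of the Pparα hep-/- CTRL group had an Angptl6 signal of 9.69 against 11.39 to 11.79 in the other 7 mice.

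**Figure D3:**
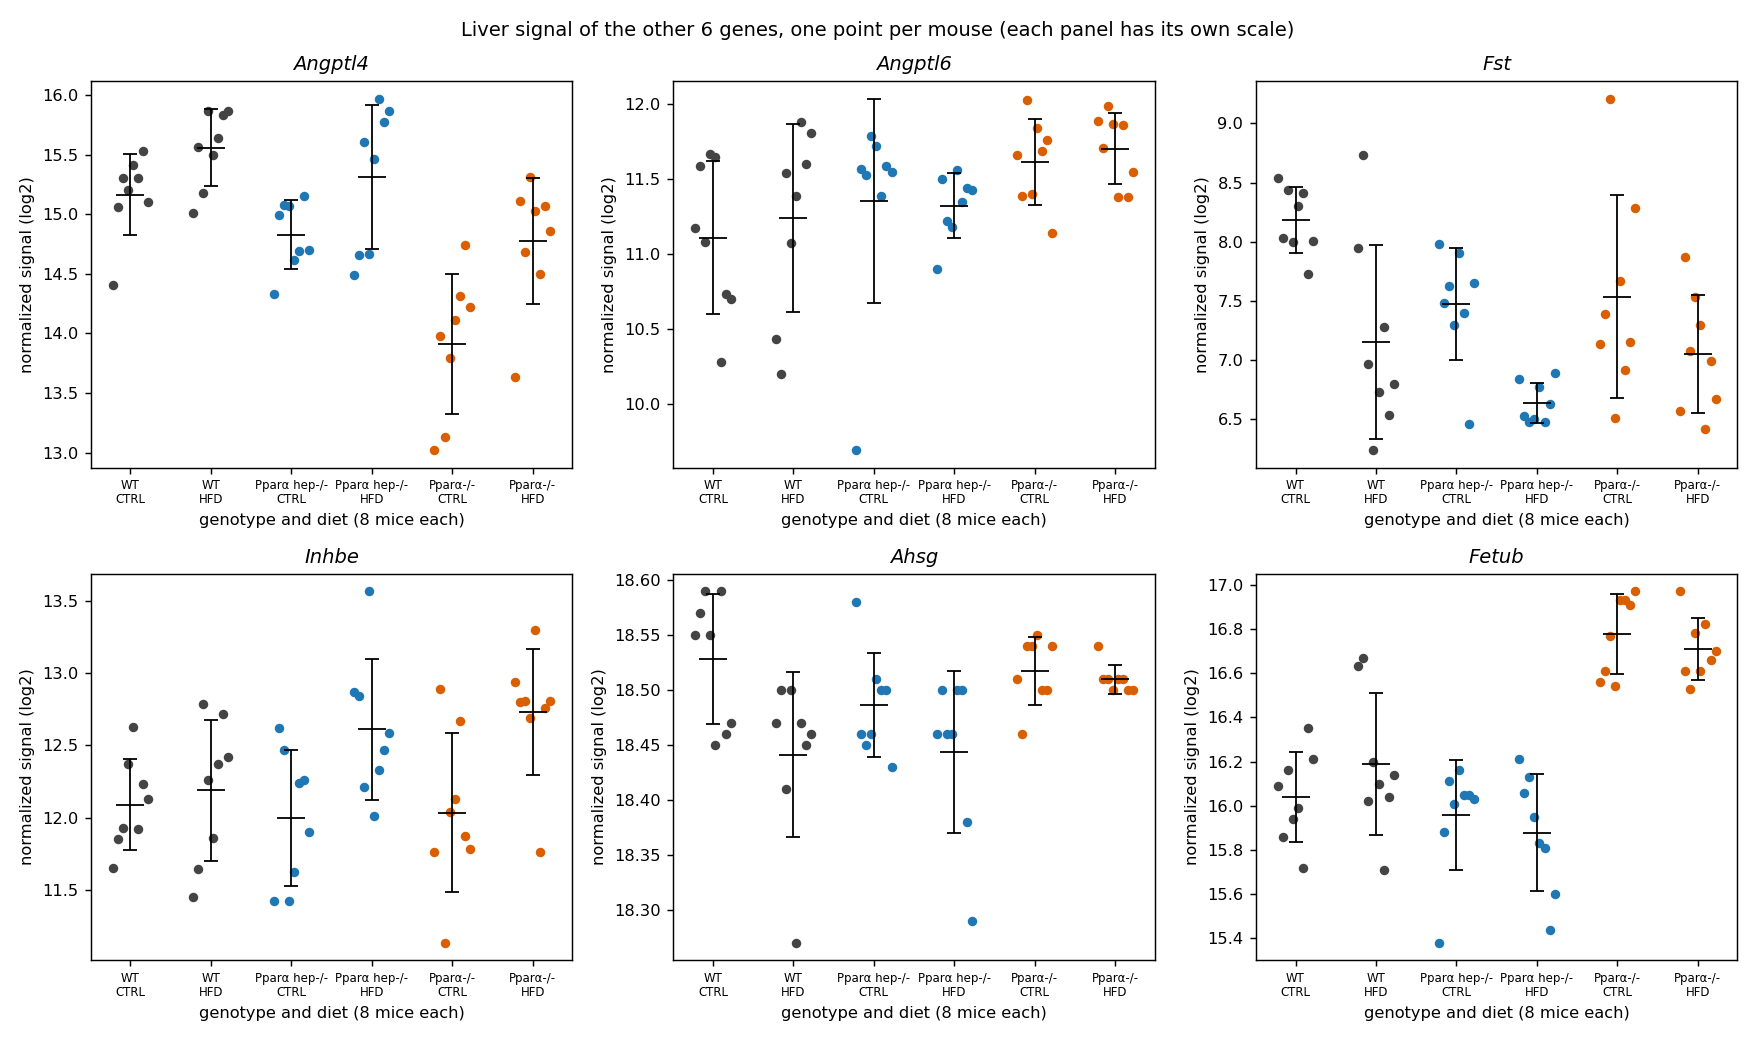
Normalized signal (log2) of Angptl4, Angptl6, Fst, Inhbe, Ahsg and Fetub in each mouse by genotype and diet, 8 mice per group; bars are the mean ± SD, and each panel has its own scale. By group mean, Angptl4 is lowest in Pparα-/- CTRL and Fst is highest in WT CTRL. The highest single Fst values, 9.21 and 8.73, are in Pparα-/- CTRL and WT HFD. Fetub in both Pparα-/- groups lies between 16.53 and 16.97.

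Fst was lowered by HFD in WT and Pparα hep-/- mice. In WT mice it went from values of 7.73, 8.16 and 8.54 on CTRL to 6.24, 6.89 and 8.73 on HFD, with 6 of 8 HFD mice below all CTRL mice. The change was -1.32 (SE 0.25, adjusted p = 0.000197), or 2.49-fold. With the hepatocyte deletion it went from 6.46, 7.55 and 7.98 to 6.48, 6.58 and 6.89, a change of -0.79 (SE 0.21, adjusted p = 0.00716). In these mice the lowest CTRL value was replicate 7, which lay below every HFD mouse. Within wash batch 1 this change was -0.22 (adjusted p = 0.773), and without array weights it was -0.85 (adjusted p = 0.0802). In Pparα-/- mice the values were 6.51, 7.27 and 9.21 on CTRL and 6.42, 7.04 and 7.87 on HFD, a change of -0.30 (95% interval -0.75 to 0.15).

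On CTRL, Fst was lower in both deletions than in WT, at -0.75 in Pparα hep-/- mice (SE 0.24, adjusted p = 0.0191) and -0.83 in Pparα-/- mice (SE 0.25, adjusted p = 0.00882), with 6 of 8 mice of each below all WT mice. The first was lost without Pparα hep-/- CTRL replicate 7 or WT CTRL replicate 1 (adjusted p up to 0.0602), and was -0.70 (adjusted p = 0.0837) without array weights and -1.29 and -0.56 (adjusted p = 0.06 and 0.135) within the wash batches. The second was -0.65 (adjusted p = 0.0756) without array weights and -0.89 (adjusted p = 0.134) within wash batch 1. On HFD no comparison of genotypes passed the test, with -0.22 (95% interval -0.67 to 0.22) in Pparα hep-/- and 0.18 (-0.26 to 0.62) in Pparα-/- mice against WT. The diet response was 1.01 less negative in Pparα-/- than in WT mice (SE 0.34, adjusted p = 0.0356). This difference was called in 6 of 13 alternatives and with 35 of 48 arrays left out in turn. It was 0.55 (adjusted p = 0.428) without array weights, 0.92 (adjusted p = 0.0689) without the wash term, 0.97 (adjusted p = 0.06) with slide as a block, 0.87 (adjusted p = 0.156) without a filter, and 1.46 and 0.86 (adjusted p = 0.12 and 0.154) within the wash batches. It was lost without any 1 of WT CTRL replicates 1, 3 or 5, WT HFD replicates 4, 5, 7 or 8, Pparα-/- CTRL replicates 4, 6 or 7 or Pparα-/- HFD replicates 2, 4 or 5 (adjusted p up to 0.0794). In WT mice on HFD the adipocyte marker Cfd was also high, at 12.6 ± 3.76 against 7.94 ± 1.67 on CTRL (n = 8 each), while Lep was at 7.48 and 7.39, Adipoq was well above background on 2 of 48 arrays and the 3 Plin1 probes on 0 to 6; among deviations from group means over 48 mice, Fst had r from 0.503 to 0.609 with all 4 neutrophil markers and from -0.456 to 0.289 with the 3 adipocyte markers. Of these markers, Ngp was well above background on 1 to 6 of the 8 arrays of a group and Retn on 3 to 5. The correlations ignore the array weights. The highest Fst deviations, 1.639 in Pparα-/- CTRL replicate 3 and 1.539 in WT HFD replicate 2, were on arrays of weight 0.419 and 0.343. The summed neutrophil signal was 9.70, 10.18 and 11.34 in WT CTRL and 8.99, 9.82 and 15.00 in WT HFD. The part of these cells in the Fst result was not tested.

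Inhbe rose on HFD in Pparα-/- mice. Values there were 11.13, 11.96 and 12.89 on CTRL and 11.76, 12.81 and 13.30 on HFD, which overlapped, and the change was 0.65 (SE 0.20, adjusted p = 0.0151). Within the wash batches it was 0.72 and 0.50 (adjusted p = 0.0841 and 0.212). In Pparα hep-/- mice, with values of 11.42, 12.07 and 12.62 on CTRL and 12.01, 12.53 and 13.57 on HFD, it was 0.49 (SE 0.19, adjusted p = 0.067; 0.61 and adjusted p = 0.0348 with the replicate block, and called without Pparα hep-/- HFD replicate 5 or CTRL replicates 2 or 3). In WT mice the change was 0.22 (95% interval -0.24 to 0.68), and the responses did not differ detectably, with Pparα-/- minus WT at 0.43 (-0.18 to 1.04). No comparison of genotypes passed the test; the lowest adjusted p, 0.0649, was for Pparα-/- against WT on HFD (0.44, SE 0.20), which was called without any 1 of 3 arrays (WT HFD replicates 3 or 7 or Pparα-/- HFD replicate 6), without the wash term (0.51, adjusted p = 0.0424) and with the authors' log2 values (0.47, adjusted p = 0.0431).

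Among 14 other tested genes of activins, follistatins and their receptors, HFD raised 1 and lowered 3 in WT mice. It raised 2 and lowered 2 in each deletion. The share of all probes called for HFD was 18.7% (WT), 20.2% (hepatocyte deletion) and 24.8% (germline deletion). These counts therefore say little about the family by themselves. Inhbb, the activin B subunit, rose on HFD in all 3 genotypes, by 0.64 in WT (adjusted p = 0.00641), 0.68 in Pparα hep-/- (adjusted p = 0.001) and 0.75 in Pparα-/- mice (adjusted p = 0.000378). Inhba, the activin A subunit, fell by 1.01 in WT mice (SE 0.18, adjusted p = 0.000113), and on CTRL it was lower in both deletions than in WT, at -0.71 and -0.74. Acvr2b, an activin type II receptor, fell by 1.07 in Pparα hep-/- (adjusted p = 4.21e-05) and by 0.88 in Pparα-/- mice (adjusted p = 0.000612) on HFD. Fstl1, a follistatin-like protein, was 1.04 and 0.84 higher in Pparα hep-/- and Pparα-/- mice than in WT on HFD (adjusted p = 0.00179 and 0.0049).

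Fetub was higher in Pparα-/- mice than in the other genotypes on both diets, with no overlap on CTRL. On CTRL the lowest, median and highest values were 15.72, 16.04 and 16.35 in WT, 15.38, 16.04 and 16.16 in Pparα hep-/- and 16.54, 16.84 and 16.97 in Pparα-/- mice. Every Pparα-/- mouse was above every mouse of the other genotypes on CTRL. The difference was 0.75 against WT (SE 0.11, adjusted p = 2.05e-07), or 1.68-fold, and 0.78 against Pparα hep-/- mice (SE 0.09, adjusted p = 8.31e-09), comparisons in which 6.15% and 4.43% of all probes had groups fully apart. On HFD the values were 15.71, 16.12 and 16.67 in WT, 15.44, 15.89 and 16.21 in Pparα hep-/- and 16.53, 16.68 and 16.97 in Pparα-/- mice. The WT and Pparα-/- groups overlapped on HFD, with 4 of 8 Pparα-/- mice above all WT mice. The difference was 0.55 against WT (SE 0.09, adjusted p = 2.65e-06) and 0.83 against Pparα hep-/- mice (SE 0.09, adjusted p = 7.42e-11, groups fully apart as for 6.55% of probes). With processed signals scaled to the 75th percentile the first of these was 0.35 (adjusted p = 0.0103).

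In HFD-fed Pparα hep-/- mice Fetub moved the other way, at -0.28 against WT (SE 0.09, adjusted p = 0.0191), with 2 of 8 mice below all WT mice. This call was lost without Pparα hep-/- HFD replicate 6 or 7 (adjusted p up to 0.0871), without array weights, with slide as a block, without a filter and within either wash batch (changes of -0.30 to -0.24, adjusted p from 0.0509 to 0.361), and on CTRL the change was -0.04 (95% interval -0.24 to 0.17). HFD changes of Fetub did not pass the test, at 0.08, -0.16 and -0.11 for WT, the hepatocyte deletion and the germline deletion. With processed signals scaled to the 75th percentile the last 2 were called, at -0.34 (adjusted p = 0.0207) and -0.44 (adjusted p = 0.00473). In the order of the 6 groups only the step from Pparα-/- HFD to WT HFD passed the test.

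Ahsg had one of the strongest signals on the array, between rank 17 and rank 37 of 33323 probes on every array. At such ranks quantile normalization sets the values almost to a fixed reference, and all 48 values lay between 18.27 and 18.59. The only call was Pparα-/- against WT on HFD, at 0.08 (SE 0.03, adjusted p = 0.0471), a 1.05-fold difference whose sign turned with processed signals scaled to the 75th percentile (-0.24, adjusted p = 0.00408). Its lowest WT HFD value, 18.27 in replicate 5, was apart from the other 7 at 18.41 to 18.50, and without that mouse the change was 0.05 (adjusted p = 0.208). The call was lost without any 1 of 18 arrays. It was kept with normexp correction, the authors' log2 values and the stricter filter, and lost without array weights, without the wash term, with slide as a block, within either wash batch, without a filter, with the replicate block and without the 2 arrays of lowest weight (adjusted p from 0.053 to 0.583). The diet change was -0.10 in WT mice (SE 0.04, adjusted p = 0.053), which was called with normexp correction (-0.11, adjusted p = 0.033), the authors' log2 values (-0.11, adjusted p = 0.0353) and the stricter filter (-0.10, adjusted p = 0.0374), and without any 1 of 8 arrays. In Pparα-/- mice the diet change was -0.01 (SE 0.03, adjusted p = 0.917), but -0.36 (adjusted p = 0.000339) with scaled processed signals.

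Of 5 other genes of the cystatin superfamily, 4 exceeded the WT level in HFD-fed Pparα-/- mice and none was lower. That comparison called 45.7% of all probes in either direction. Hrg, histidine-rich glycoprotein, was 0.69 higher on CTRL (SE 0.14, adjusted p = 0.000187) and 1.02 higher on HFD (SE 0.12, adjusted p = 5.09e-09). On CTRL Hrg was the only gene of the 5 that differed, where 34.2% of all probes were called. In Pparα hep-/- mice Hrg was 0.41 higher on CTRL (adjusted p = 0.0253). Ahsg and Fetub lie on chromosome 16, with probes at chr16:22899415-22899474 and chr16:22939736-22939795 (mm9).

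Other secreted liver proteins moved in both directions. Of 14 tested genes, 4 were higher and 6 lower in Pparα hep-/- than in WT mice on CTRL, and 2 were higher and 2 lower in Pparα-/- mice. These comparisons called 24.7% and 34.2% of all probes. Serpina12, which encodes vaspin, fell by 3.02 in Pparα-/- mice (SE 0.39, adjusted p = 2.09e-08) on CTRL, and with the hepatocyte deletion it fell by 1.64 (adjusted p = 0.000818). Lect2, a hepatokine linked to muscle insulin resistance, was 1.01 and 1.00 higher in Pparα-/- mice on CTRL and HFD, and Igfbp1, an insulin-repressed binding protein, was 1.60 higher in Pparα hep-/- mice on CTRL (adjusted p = 0.00873). HFD raised 2 and lowered 1 of the 14 in WT mice (18.7% of all probes called), with Manf, an endoplasmic reticulum stress protein, at -1.16 (adjusted p = 9.85e-06).

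Over the 48 mice, Fgf21 deviations from the group means ran with those of Gdf15 and against those of Fetub. Deviations from the group means, with the wash batch removed, were correlated over 48 mice for the 28 pairs of genes, with permutation within groups (100000 permutations, two-sided). For Fgf21 and Gdf15, r was 0.672 and rho 0.609 (p = 1e-05 for both, the smallest the permutations can give; adjusted over 28 pairs 0.00014), with r = 0.588 and 0.781 within the wash batches and 0.618 without the 2 mice farthest from the median of Fgf21. The sign was the same in 5 of 6 groups, and r was -0.335 in Pparα hep-/- HFD and 0.910 in Pparα hep-/- CTRL. For Fgf21 and Fetub, r was -0.715 and rho -0.638 (p = 1e-05 for both, adjusted 0.00014), with -0.705 and -0.750 within the wash batches, -0.613 without the 2 farthest mice and the same sign in 6 of 6 groups (-0.922 to -0.420). Since the Fgf21 signal exceeded background clearly on 1 of 8 arrays in Pparα-/- CTRL and on 4 of 8 in Pparα hep-/- CTRL, its deviations in those groups lie near the limit of detection.

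**Figure D4:**
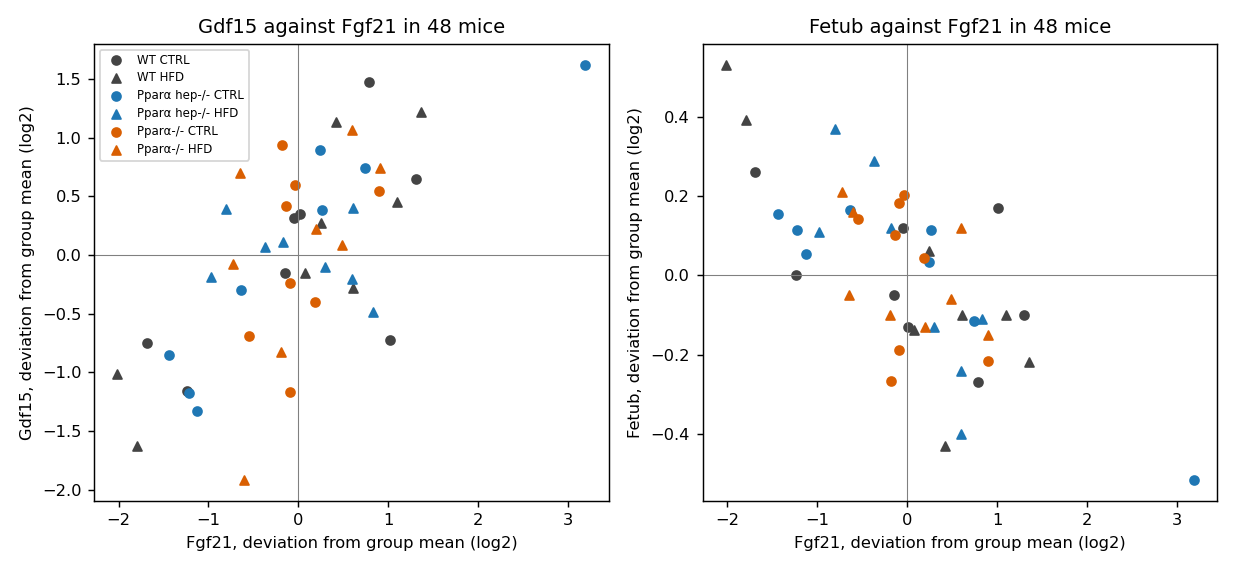
Deviation of Gdf15 (left) and Fetub (right) from the group mean against that of Fgf21 in 48 mice (log2, wash batch removed), with colours for genotype, circles for CTRL and triangles for HFD. Gdf15 rises (r = 0.672) and Fetub falls (r = -0.715) with Fgf21, and the Pparα hep-/- CTRL mouse at the far right is replicate 1.

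Of the other pairs, Gdf15 and Fetub had r = -0.504 (rho = -0.464; permutation p = 0.00029 and 0.00117, adjusted 0.00271 and 0.0109; -0.476 and -0.565 within the wash batches, -0.452 without the 2 farthest mice). Gdf15 and Inhbe had r = 0.409 (permutation p = 0.00462, adjusted 0.0323), which fell to 0.268 without the 2 mice farthest from the median of Gdf15, and was 0.244 and 0.597 within the wash batches; rho was 0.393 (adjusted 0.0751). The remaining 24 pairs did not pass the adjustment. Markers of several cell types shared this variation. Over the same 48 mice, as a description, deviations of Fgf21 correlated with those of all 7 stellate cell markers (r from 0.470 to 0.629), those of Gdf15 did too (0.546 to 0.714), and those of Fetub correlated negatively (-0.651 to -0.454). For 5 cholangiocyte markers r ran from 0.199 to 0.700 with Fgf21, from 0.237 to 0.612 with Gdf15 and from -0.568 to -0.100 with Fetub. For 3 exocrine pancreas markers the median r was -0.0252 with Fgf21 (-0.651 to 0.0982), -0.0679 with Gdf15 (-0.563 to 0.05) and 0.0131 with Fetub (-0.101 to 0.743), with Cela2a as the far value in each. For 7 hepatocyte markers r ran from -0.582 (Cps1) to 0.313 (Ttr) with Fgf21. The part of these cells in the covariation was not tested.

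The genes whose signal over the 48 arrays was most like that of a member are given as a description, with Pearson's r after removal of the wash batch. For Fgf21 they were Fut1 (0.876), Rtn4 (0.835) and Fam50a (0.830), and for Gdf15 Egr2 (0.852), 5830408B19Rik (0.839) and Tnfaip3 (0.838). Angptl4 was most like Plin5 (0.835), which encodes a lipid droplet protein, St3gal5 (0.804) and Lgals6 (0.801). Angptl6 was most like Colec10 (0.887), Ecm1 (0.868) and Ntm (0.851), and these values stayed as high among deviations from group means (0.892, 0.897 and 0.856). Fetub was most like Tfr2 (0.919), which encodes transferrin receptor 2, Gm39121 (0.917) and Med29 (0.891). For Fst the closest was Mydgf (0.791), for Inhbe Iglon5 (0.746), and for Ahsg an unnamed transcript (0.697). Points share group differences, so these values describe likeness and not control.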

How the data were processed

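Total RNA of 48 whole livers was hybridised to Agilent single-colour arrays. The deposited scanner files hold spot intensity values from Feature Extraction 10.10.1.1, with local background, and a deposited table of the authors holds log2 normalized values of the same arrays, used as an alternative. Log2 median intensity without background subtraction was used, outlier spots were left out, spots of a probe were averaged, and a probe was kept if 4 or more of the 8 arrays of any group showed it well above background. Values were quantile normalized, which narrows the spread of very bright probes such as Ahsg. limma 3.58.1 in R 4.3.3 fitted 6 group means, a wash batch term and array weights, with Benjamini-Hochberg adjustment over 33323 probes in each of 12 contrasts and calls at an adjusted p of at most 0.05. The fit was tested on simulated data with independent Gaussian noise, no wash effect and arrays of equal quality. That test does not check the wash term, the array weights or values near background.

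Median intensity per array was 56 to 91 against a local background of 20 to 36. The number of arrays limits the precision. The limma p-values weigh a difference against the spread between mice within groups, with an estimate per probe that all groups share. That spread differed between groups, for Fgf21 with an SD of 0.41 in Pparα-/- CTRL and 1.52 in Pparα hep-/- CTRL. Named were all 8 members, Ppara, the 3 genes most like each member over 48 arrays, and up to 3 called genes per list and contrast by size of change, with marker genes where their levels bear on a result. The members and gene lists were chosen with earlier results of these data known. Alternatives were a stricter threshold, no weights, no wash term, slide as a block, each wash batch alone, normexp (offset 50), processed signals scaled to the 75th percentile, the authors' log2 values, no filter, a stricter filter, a replicate block, and each array left out. One result is not reported here.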

Additional observations from a re-analysis of the deposited data

Results flagged for a closer look

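In 8 of the 48 sets of 8 values (a gene in a group), the highest or lowest mouse lay farther from the rest than Dixon's 95% critical value allows; chance alone gives about 1 in 20. Pparα hep-/- CTRL replicate 1, the array of lowest weight, accounted for 3 of them: Fgf21 was 9.61 (log2) against 4.98 to 7.18 in the other mice, Angptl6 was 9.69 against 11.39 to 11.79, and Fetub was 15.38 against 15.88 to 16.16. In the same group Fst was 6.46 in replicate 7 against 7.30 to 7.98. Angptl4 was 14.41 in WT CTRL replicate 1 against 15.06 to 15.53, and Inhbe was 11.76 in Pparα-/- HFD replicate 6 against 12.69 to 13.30. Ahsg was 18.27 in WT HFD replicate 5 against 18.41 to 18.50, and 18.54 in Pparα-/- HFD replicate 1 against 18.50 to 18.51.

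The response to HFD differed between Pparα-/- and WT mice, by the test of the difference itself, for 2 genes: by 2.65 on the log2 scale for Fgf21 (adjusted p = 0.00135) and by 1.01 for Fst (adjusted p = 0.0356). The Fst difference was called in 6 of 13 alternatives and with 35 of 48 arrays left out in turn.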

How the results depend on the processing

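Of the 29 calls of a member in a contrast, all were kept with normexp, the authors' table and the stricter filter, 28 with the replicate block and without the 2 arrays of lowest weight, 27 with processed signals scaled to the 75th percentile, 25 without the wash term, 24 with slide as a block, 22 without a filter, 20 at an adjusted p of at most 0.01, 17 without array weights, and 16 and 15 within wash batches 1 and 2, where fewer mice enter. The cause of the other losses was not tested. With 1 array left out in turn, 1338 called values stayed called, 54 did not, 28 others became called, and no called value changed sign.

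Only the larger moves in the counts of called members are listed here. Smaller moves, such as from 3 to 2, are left out. For example, HFD in Pparα hep-/- mice lost Fgf21 at the stricter threshold, without the wash term and without a filter. For HFD in WT mice the count of 1 became 2 with normexp, the authors' table and the stricter filter. For HFD in Pparα hep-/- mice the count of 3 became 0 without weights, 1 within wash batch 2 and 5 with the replicate block. For HFD in Pparα-/- mice 3 became 1 within wash batch 2 and 5 with scaled processed signals. For Pparα hep-/- against WT on CTRL 3 became 1 at the stricter threshold, without weights and within wash batch 1, and on HFD 3 became 1 without weights and 0 within wash batch 2. For Pparα-/- against WT on CTRL 5 became 3 within wash batch 1, and on HFD 5 became 3 at the stricter threshold, without weights, with slide, within either wash batch and without a filter. For Pparα-/- against Pparα hep-/- on CTRL 2 became 1 within either wash batch, and on HFD 2 became 1 at the stricter threshold, without weights, with slide, within wash batch 2 and without a filter. For the diet response of Pparα-/- minus WT 2 became 1 at the stricter threshold, without weights, without the wash term, with slide, within wash batch 1 and without a filter, and 0 within wash batch 2; for Pparα hep-/- minus WT 0 became 1 (Fgf21) with scaled processed signals. The 5 neighbouring groups that differed became 2 without weights and 3 without the wash term.

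With 1 array left out the counts ran from 1 to 2 (HFD, WT), 2 to 4 (HFD, Pparα hep-/-), 3 to 4 (HFD, Pparα-/-), 1 to 3 (Pparα hep-/- against WT, CTRL), 2 to 3 (the same, HFD), 3 to 5 (Pparα-/- against WT, HFD), 1 to 3 (Pparα-/- against Pparα hep-/-, HFD), 0 to 1 (diet response, Pparα hep-/- minus WT) and 1 to 2 (Pparα-/- minus WT); they stayed at 5 and 2 for Pparα-/- against WT and against Pparα hep-/- on CTRL. Ahsg changed sign with scaled processed signals, to -0.24 for Pparα-/- and -0.18 for Pparα hep-/- against WT on HFD. Under that scaling the share of called probes that were higher went from 46.8 to 35.5% (HFD, Pparα hep-/-), from 49.3 to 35.6% (HFD, Pparα-/-), from 49.7 to 37.8% (Pparα hep-/- against WT, HFD), and from 44.4 to 31.2% and 48.3 to 29.9% for the diet responses of Pparα hep-/- and Pparα-/- minus WT.

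The replicate numbers did not pair the mice: deviations of same-numbered mice of different groups had a median correlation of 0.0164 (-0.479 to 0.703), with 40 of 120 above 0.1. With the replicate block, the count for HFD in Pparα hep-/- mice was 5 and that for Pparα-/- against WT on HFD was 4, where Ahsg was lost.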

Other observations

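Of 12 tested ChREBP targets, genes of sugar-driven lipid synthesis, HFD lowered 3 and raised 0 in WT mice, lowered 5 and raised 2 with the hepatocyte deletion, and lowered 5 and raised 1 with the germline deletion. These comparisons called 18.7%, 20.2% and 24.8% of all probes. Elovl6, a fatty acid elongase, fell by 1.43, 1.98 and 1.22. None was higher and 8 were lower in Pparα-/- than in WT mice on HFD, and 4 were higher and none lower in Pparα hep-/- mice. Of all probes, 45.7% and 26.7% were called in these comparisons.

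Among other marker lists, 3 of 4 neutrophil markers and 2 of 4 lymphocyte markers were higher in Pparα-/- than in WT mice on HFD. That comparison called 45.7% of all probes in either direction, so these counts and those below say little by themselves. The neutrophil marker Ngp was well above background on 2 of 8 WT HFD arrays, and the lymphocyte marker Cd8a on 1 of 8. Endothelial markers were higher for 3 of 5 and lower for 1, cholangiocyte markers higher for 1 of 5, exocrine pancreas markers higher for 2 of 3, and red blood cell markers called for 0 of 3 (limma). Of 7 hepatocyte markers 3 were lower, and of 3 adipocyte markers 2 were lower.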
